A study of Mus musculus with 24 samples.

Results

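Oncofetal liver genes are active in the fetal liver, are turned down in hepatocytes after birth and are often found again in regenerating liver and in liver tumours. The 10 genes followed here are Afp, H19, Igf2, Dlk1, Gpc3, Golm1, Ly6d, Cd24a, Epcam and Sox9. They were chosen by symbol, with earlier results of these data known. All 10 have a row among the 24015 gene symbols of the deposited count table. They were examined in female B6C3F1 mice, labelled as 5 to 6 weeks old, that had been given furan by gavage at 8 mg/kg body weight per day in corn oil for 21 days, or corn oil alone, with livers collected 4 h after the last dose. Furan damages the liver after hepatocytes turn it into a reactive dialdehyde. From each liver, 1 piece was frozen fresh and 2 were fixed in formalin and embedded in paraffin (FFPE), the first after 18 h and the second after 3 wk in formalin. The labels list 4 animals per treatment for poly(A)-selected RNA-seq of fresh-frozen liver, and 3 furan libraries (animals 41, 43 and 44) and 3 control libraries (animals 02, 04 and 06) were analysed. No column could be matched to the fresh-frozen pieces of furan animal 42 and control animal 03, and 2 fresh-frozen columns are numbered for animals outside the labels; none of these 4 was analysed here. For each fixation time there were 4 furan libraries (animals 41 to 44) and 4 control libraries (animals 02, 03, 04 and 06). The animal numbers come from the labels, and pieces of the same liver share a number.

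The members work at different points of fetal growth. Afp encodes alpha-fetoprotein, the main plasma protein of the fetus, which the adult liver keeps silent through repressors such as Zhx2 and Zbtb20. Igf2 and H19 are neighbouring imprinted genes, the first encoding a growth factor read from the paternal copy and the second a long non-coding RNA read from the maternal copy; Dlk1 is an imprinted gene for a Notch-ligand-like membrane protein of hepatoblasts. Gpc3 encodes a cell surface heparan sulfate proteoglycan and Golm1 the Golgi membrane protein GP73, and the products of both are used as markers of hepatocellular carcinoma. Ly6d, Cd24a and Epcam encode surface proteins of progenitor, lymphoid or biliary cells, and Sox9 is the transcription factor of bile duct cells and of a periportal hepatocyte population. Each value comes from a whole piece of liver, where more cells of a type and more RNA per cell cannot be told apart.

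Library depth differed by kind of piece. Fresh-frozen libraries held 33101755 to 58048387 counts, FFPE 18 h libraries 16269854 to 22494012 and FFPE 3 wk libraries 3666173 to 11780691. The 10 members together took 704 to 1433 counts in a fresh-frozen library, 201 to 862 in an FFPE 18 h library and 70 to 928 in an FFPE 3 wk library. The ribosomal precursor Rn45s took 0.129% to 0.52% of fresh-frozen counts, but 37.3% in the FFPE 18 h piece of control animal 06 and 16.5% in that of furan animal 42. The 6 hepatocyte markers summed to 153000 to 165000 CPM, the usual count scaled to library depth, in fresh-frozen pieces, so the pieces carried the transcripts of their labelled tissue. Levels below are CPM scaled with TMM among libraries of one kind of piece. Fold changes are fitted log2 values ± SE from edgeR's quasi-likelihood test, and adjusted p is corrected by Benjamini and Hochberg across every gene tested and called under 0.05.

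In fresh-frozen liver, furan-treated animals had more H19, Golm1 and Ly6d RNA than controls, while Igf2, Epcam and Sox9 had fitted changes near 0. Of the 9 members with enough counts to be tested, 3 rose and 0 fell. Among all 13794 tested genes 8.21% rose and 7.47% fell, 15.7% in all. Since the members were chosen with earlier results of these data known, these shares do not test them as a set. The median fitted log2 fold change was 0.63 over the 9 members and -0.01 over all tested genes. The furan and control libraries did not overlap for 4 members, H19, Golm1, Ly6d and Gpc3, each higher with furan; 19% of tested genes were separated in that direction and 18.4% in the other (37.4% in all).

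**Figure D1:**
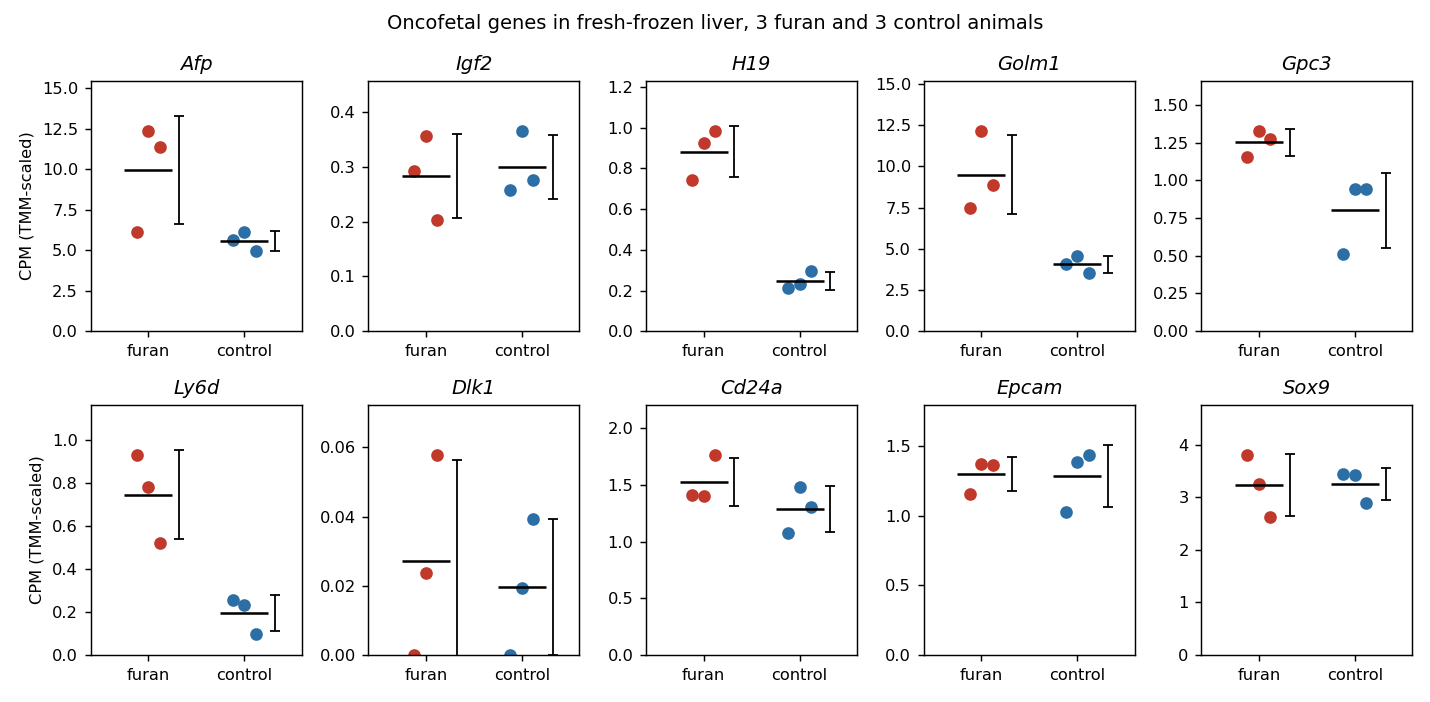
Levels of the 10 oncofetal genes in fresh-frozen liver, in TMM-scaled CPM on axes that start at 0, with a point for each animal, a line for the mean and a bar for the SD of 3 furan and 3 control animals. The 3 furan points lie above the 3 control points for H19, Golm1, Ly6d and Gpc3, and the groups overlap for the other members.

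In fresh-frozen liver alpha-fetoprotein RNA had the highest mean level of the members in both treatments, in CPM as well as per kb of exon. Afp averaged 2.96 CPM per kb of exon in furan livers and 1.65 CPM per kb in control livers. Afp had 6.14, 12.4 and 11.4 CPM in furan animals 41, 43 and 44, against 5.61, 6.15 and 4.92 CPM in control animals 02, 04 and 06. Animals 43 and 44 lay above every control, whereas animal 41 lay between the controls, so the groups overlapped. The fitted change was 0.83 ± 0.24, a fold of 1.78, and its adjusted p of 0.0532 in edgeR's quasi-likelihood test just missed the threshold. Afp passed with DESeq2 (adjusted p 0.00402), with no filter on low counts (0.0372) and, in edgeR without furan animal 41, at 1.11 with an adjusted p of 0.00786. It stayed uncalled in 5 of 7 alternative settings. In edgeR these included RLE scaling (adjusted p 0.0532), the filter at 1 CPM (0.0549) and robust dispersions (0.08). Leaving out 1 library at a time gave changes of 0.65 to 1.11, with adjusted p of 0.00786 to 0.166 in edgeR. Of these fits only the one without furan animal 41 passed.

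Golm1 rose with furan. Golm1 had 7.50, 12.1 and 8.86 CPM in furan animals 41, 43 and 44, against 4.07, 4.57 and 3.54 CPM in control animals 02, 04 and 06. Every furan animal exceeded every control, with animal 43 the highest. The fitted change was 1.22 ± 0.19, a fold of 2.33, with an adjusted p of 0.00707 in edgeR's quasi-likelihood test. With all libraries thinned to the shallowest total the change was 1.17 with an adjusted p of 0.0807. Exons of Golm1 overlap those of the opposite-strand gene Naa35, which encodes a subunit of an N-terminal acetyltransferase, by 1297 nt in the GENCODE M21 annotation, and the library kit does not mark strand, so part of the Golm1 counts is uncertain. Naa35 itself averaged 29.6 ± 1.03 CPM in furan livers and 34.7 ± 2.36 CPM in control livers (SD, n = 3 each), a difference opposite in direction to that of Golm1.

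The promoters of Afp and Golm1 are printed because these are the called members that the RefSeq promoter table holds; it covers 6 of the 10 members. Each window runs on the coding strand over 300 bases, 250 before and 50 after the RefSeq start in build GRCm38.p6. Capitals mark the letters TATAAA (the TATA box), TGANTCA (the AP-1 motif), TGANNNNGC (the core of the antioxidant response element) and GTTAAT (one arm of the HNF1 site), searched on both strands. The Afp window is chr5:90490464-90490763 on the plus strand and the Golm1 window chr13:59675735-59676034 on the minus strand.
Afp promoter: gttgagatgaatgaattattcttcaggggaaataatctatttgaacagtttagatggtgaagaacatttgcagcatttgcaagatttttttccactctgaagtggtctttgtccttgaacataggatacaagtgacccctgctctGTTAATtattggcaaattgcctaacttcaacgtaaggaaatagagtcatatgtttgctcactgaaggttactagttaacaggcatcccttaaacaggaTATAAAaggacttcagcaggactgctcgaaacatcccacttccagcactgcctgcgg
Golm1 promoter: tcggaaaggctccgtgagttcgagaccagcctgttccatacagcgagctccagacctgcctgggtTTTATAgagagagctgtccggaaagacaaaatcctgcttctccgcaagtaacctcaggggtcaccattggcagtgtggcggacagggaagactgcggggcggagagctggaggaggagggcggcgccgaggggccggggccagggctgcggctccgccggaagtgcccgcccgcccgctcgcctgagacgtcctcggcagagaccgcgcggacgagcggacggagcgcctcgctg

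The windows differ in composition. The Afp window had 40% G and C and 3 CpG dinucleotides, and the Golm1 window 67% and 30. In the Afp window TATAAA begins 30 bases before the GENCODE start of the gene, and GTTAAT lies at position -105 from the RefSeq start. In the Golm1 window TATAAA matched on the opposite strand, at position -185. Neither window held TGANTCA or TGANNNNGC. Over the 32851 promoters of this length in the table, 13.6% held TATAAA, 7.1% GTTAAT, 7.81% TGANTCA and 41.3% TGANNNNGC.

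The imprinted neighbours H19 and Igf2 differed in their fitted changes. H19 rose, with 0.741, 0.924 and 0.984 CPM in furan animals 41, 43 and 44, against 0.210, 0.231 and 0.295 CPM in control animals 02, 04 and 06. These levels rest on 43, 39 and 34 counts in the furan libraries and 9, 12 and 15 counts in the control libraries. The lowest furan value lay well above the highest control value. H19 changed by 1.82 ± 0.26, a fold of 3.52, with an adjusted p of 0.0054 in edgeR's quasi-likelihood test. Igf2, which shares enhancers with H19, had 0.293, 0.355 and 0.203 CPM in furan animals 41, 43 and 44, against 0.257, 0.365 and 0.276 CPM in control animals 02, 04 and 06. The Igf2 groups overlapped throughout. Its fitted change was -0.07 ± 0.32 (adjusted p 0.908 in edgeR), with a 95% interval of -0.81 to 0.67. Of the longest Igf2 transcript, 75.9% of 50-nt words are shared with the same-strand annotation Gm49394, which makes its counts uncertain.

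H19 is also the host gene of a microRNA, shown here because H19 carried one of the called changes and its transcript can be cut into these mature RNAs. Capitals mark the seeds, bases 2 to 8. The sequences are those of RefSeq, build GRCm38.p6, and lie on the minus strand at chr7:142577112-142577133 and chr7:142577078-142577099.
mmu-miR-675-5p: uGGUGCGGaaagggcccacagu
mmu-miR-675-3p: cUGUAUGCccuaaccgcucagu
The 2 arms have different seeds. The row of Mir675 held 0 counts in all 22 libraries; the libraries were made from poly(A)-selected RNA and do not measure mature microRNAs. The Mir675 exon covers 84 nt of H19 on the same strand.

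Dlk1 was barely detected. It had 0, 1 and 2 counts in the fresh-frozen libraries of either treatment, 3 counts over the furan animals and 3 over the controls, and it was not tested. In fresh-frozen pieces Dlk1 and Igf2 had the lowest level per length of the members. They stood at 0.00481 and 0.0496 CPM per kb in furan livers and 0.00345 and 0.0523 CPM per kb in control livers.

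The proteoglycan gene Gpc3 had 1.16, 1.33 and 1.27 CPM in furan animals 41, 43 and 44, against 0.514, 0.941 and 0.945 CPM in control animals 02, 04 and 06. The groups did not overlap, and control animal 02 lay apart below the other controls. Gpc3 did not pass the test, with a fitted change of 0.63 ± 0.25 and an adjusted p of 0.131 in edgeR.

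Ly6d, a member of the Ly6 family of lipid-anchored surface proteins known from lymphoid progenitors and squamous epithelium, rose with furan. It had 0.931, 0.782 and 0.521 CPM in furan animals 41, 43 and 44, against 0.257, 0.231 and 0.0985 CPM in control animals 02, 04 and 06. The counts behind these levels were 54, 33 and 18 in furan libraries and 11, 12 and 5 in control libraries. Every furan animal exceeded every control, and animal 41, the lowest furan animal for Afp, Golm1 and H19, was the highest for Ly6d. The fitted change was 1.96 ± 0.38, a fold of 3.89, with an adjusted p of 0.0147 in edgeR's quasi-likelihood test. The call was lost in edgeR without furan animal 41 (1.77, adjusted p 0.051) or without furan animal 43 (1.94, adjusted p 0.0548). The 6 B cell markers summed to 1.94 to 2.08 CPM in furan livers and 1.87 to 3.28 CPM in control livers. The 5 keratinocyte markers summed to 0.913 to 1.1 CPM in furan livers and 0.906 to 1.24 CPM in control livers, with Krt14 and Krt13 at 0 in all 6 libraries. The ranges overlapped for both lists, of which 5 B cell markers and 1 keratinocyte marker had enough counts to be tested, and the part of these cells in the Ly6d rise was not tested.

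The members that mark bile duct and progenitor cells did not pass the test in fresh-frozen liver. Cd24a, a lipid-anchored sialoglycoprotein, had a fitted change of 0.23 ± 0.19 (adjusted p 0.442), Epcam, an epithelial adhesion molecule, 0.00 ± 0.20 (adjusted p 0.993) and Sox9 0.00 ± 0.16 (adjusted p 0.997), all from edgeR. The 95% intervals ran from -0.45 to 0.45 for Epcam and from -0.37 to 0.38 for Sox9, so a log2 change of 1 lay outside both. Sox9 had 3.81, 3.24 and 2.63 CPM in furan animals 41, 43 and 44, against 3.43, 3.42 and 2.90 CPM in control animals 02, 04 and 06. Epcam had 1.16, 1.37 and 1.36 CPM in furan animals 41, 43 and 44, against 1.03, 1.38 and 1.44 CPM in control animals 02, 04 and 06. The groups overlapped for both genes. The sum of 8 other cholangiocyte markers was 71.4 to 79.7 CPM in furan livers and 68.7 to 74.6 CPM in control livers.

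**Figure D2:**
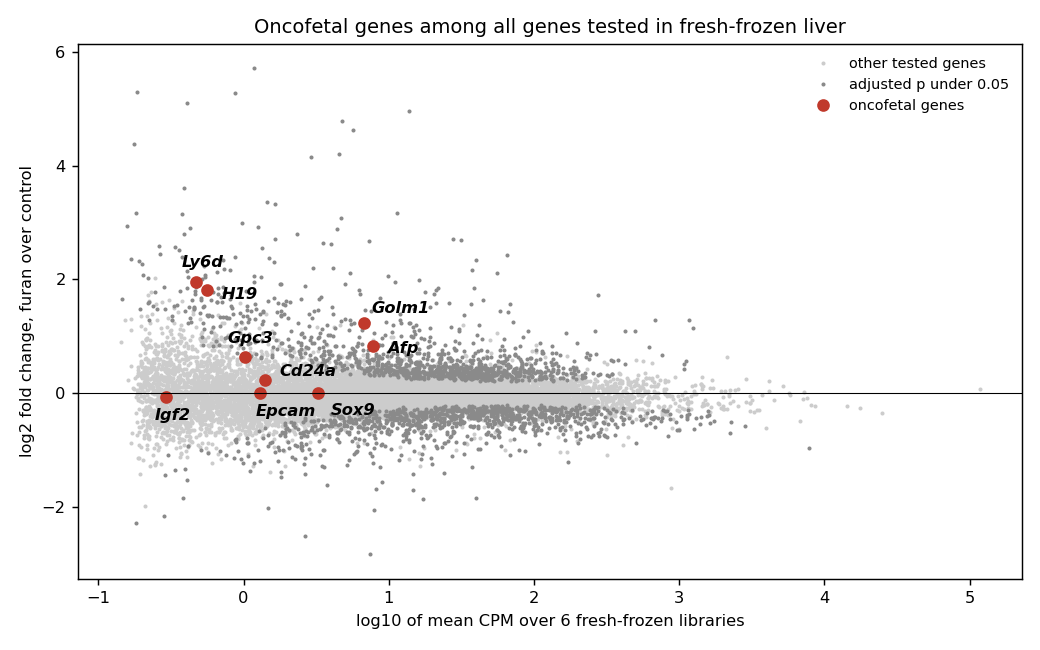
Fitted log2 fold change, furan over control, against the log10 of the mean CPM over 6 fresh-frozen libraries, for all 13794 tested genes (dark grey where adjusted p is under 0.05) and the 9 tested oncofetal genes in red. H19 at 1.82, Ly6d at 1.96 and Golm1 at 1.22 lie among the called genes above the line at 0, and Sox9, Epcam and Igf2 lie on or next to the line.

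Per length of exon, the order of the members in fresh-frozen pieces of furan livers was Afp, Golm1, Ly6d, Sox9, Cd24a, Epcam, Gpc3, H19, Igf2 and Dlk1. In fresh-frozen pieces of control livers it was Afp, Golm1, Sox9, Epcam, Cd24a, Gpc3, Ly6d, H19, Igf2 and Dlk1. Ly6d thus stood at 1.00 ± 0.28 CPM per kb in furan livers and 0.263 ± 0.11 CPM per kb in control livers (SD, n = 3 each). The neighbours Cd24a and Epcam differed by less than the larger of their SDs, at 0.591 ± 0.081 and 0.590 ± 0.056 CPM per kb in furan livers, and at 0.498 ± 0.079 and 0.584 ± 0.10 CPM per kb in control livers. Afp and Golm1 in furan livers also differed by less than the larger SD, at 2.96 ± 0.99 and 2.15 ± 0.54 CPM per kb.

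Of 6 proliferation markers 5 rose with furan in fresh-frozen liver, with a median of 1.33 on the log2 scale. Their sum was 13.1, 23.3 and 27.9 CPM in furan animals 41, 43 and 44, against 8.22, 10.4 and 7.27 CPM in control animals 02, 04 and 06. Animal 41 was the lowest furan animal for this sum, as for the called members Golm1 and H19 and for Afp, which was not called, but it was the highest for the called member Ly6d, whose order over the 3 furan animals was the reverse of the sum's. The part of dividing cells in the change of these members was not tested. Among the other 11 cell type lists no tested marker passed in fresh-frozen liver; 0 neutrophil markers, 1 erythroid marker and 1 keratinocyte marker had enough counts to be tested.

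Afp was the member that rose in FFPE 18 h pieces. Afp had 4.62, 6.10, 6.00 and 6.87 CPM in furan animals 41, 42, 43 and 44, against 2.95, 2.60, 3.03 and 3.62 CPM in control animals 02, 03, 04 and 06. The lowest furan value stood above the highest control value, and animal 41 was again the lowest furan animal. The fitted change was 0.96 ± 0.21, a fold of 1.95, with an adjusted p of 0.0121 in edgeR's quasi-likelihood test. Without the libraries with over 15% Rn45s, control 06 and furan 42, it was 1.03 with an adjusted p of 0.0168. With only the 6 animals that also have a fresh-frozen library it was 0.88, and the adjusted p of 0.0735 no longer passed. Afp was 1 of 8 members tested, and 3.92% of the 12832 tested genes rose and 4.47% fell (8.39% in either direction). It was also the 1 member whose groups did not overlap, where 7.96% of tested genes were separated with furan higher and 7.77% with furan lower (15.7% in all). Proliferation markers summed to 10.7, 15.2, 16.1 and 23.0 CPM in furan animals 41, 42, 43 and 44, against 10.6, 12.8, 10.2 and 4.59 CPM in control animals 02, 03, 04 and 06, with 0 of 6 passing the test; their part in the Afp change was not tested.

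Golm1 and Ly6d were less separated in FFPE 18 h pieces. Golm1 had 6.16, 7.84, 7.45 and 7.22 CPM in furan animals 41, 42, 43 and 44, against 5.45, 6.29, 4.29 and 2.82 CPM in control animals 02, 03, 04 and 06. Control animal 03 exceeded furan animal 41, and the fitted change of 0.58 ± 0.22 did not pass (adjusted p 0.127 in edgeR). Ly6d had 3.32, 3.53, 6.00 and 3.46 CPM in furan animals 41, 42, 43 and 44, against 3.84, 4.42, 2.48 and 0.441 CPM in control animals 02, 03, 04 and 06. These groups overlapped, with control 06, the library richest in Rn45s, far below the rest. The fitted change of Ly6d was 0.51 ± 0.44 (adjusted p 0.529 in edgeR).

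H19 varied widely within both groups of FFPE 18 h pieces. It had 0.415, 2.27, 2.15 and 5.12 CPM in furan animals 41, 42, 43 and 44, against 2.89, 0.442, 0.496 and 0.706 CPM in control animals 02, 03, 04 and 06. Control animal 02 exceeded 3 of 4 furan animals, and furan animal 41 was the lowest of all. Keratinocyte markers summed to 3.85, 2.33, 3.12 and 21.0 CPM in FFPE 18 h pieces of furan animals 41, 42, 43 and 44. In control pieces they summed to 2.67 to 4.13 CPM, and their part in the H19 and Afp values of animal 44 was not tested. The fitted change of H19 was 1.12 ± 0.69 (adjusted p 0.357 in edgeR). Igf2 (-0.01 ± 0.44, adjusted p 0.994), Sox9 (-0.22 ± 0.18, adjusted p 0.508), Cd24a (-0.53 ± 0.47, adjusted p 0.539) and Epcam (-0.54 ± 0.39, adjusted p 0.438) did not pass either. The median over the 8 tested members was 0.25, against -0.01 over all tested genes. Gpc3, with 37 counts in furan and 27 in control libraries, and Dlk1, with 6 and 1, were too low to test.

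**Figure D3:**
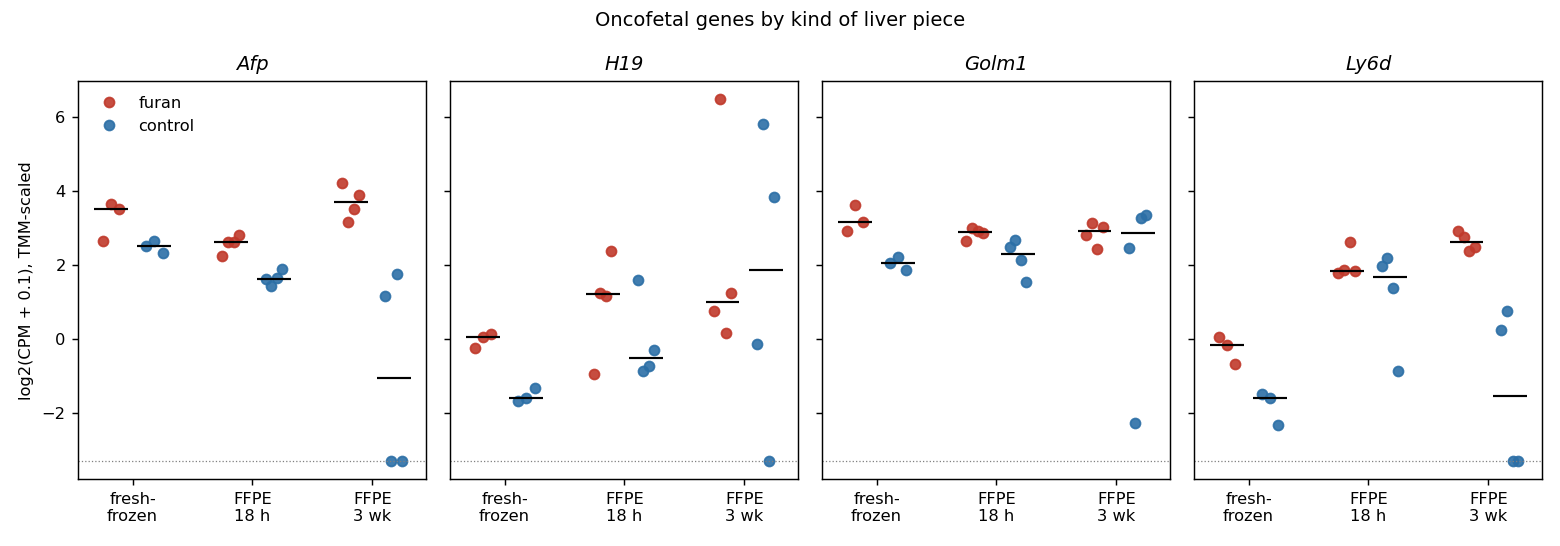
Levels of Afp, H19, Golm1 and Ly6d in each library as log2(CPM + 0.1), TMM-scaled within each kind of piece, with furan in red left of control in blue, a line for the median and a dotted line for 0 CPM. Afp is separated in both kinds of FFPE piece, H19 and Golm1 in fresh-frozen pieces, and Ly6d in fresh-frozen and FFPE 3 wk pieces; the 3 wk libraries spread most.

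In FFPE 3 wk pieces, Afp and Ly6d were higher in every furan animal than in any control, but 0 members passed the test. Afp had 18.6, 8.89, 11.4 and 14.7 CPM in furan animals 41, 42, 43 and 44, against 2.15, 0, 3.25 and 0 CPM in control animals 02, 03, 04 and 06. Those control levels rest on 8, 0, 34 and 0 counts. The fitted change of Afp was 3.33 ± 1.14 with an adjusted p of 0.232 in edgeR. Ly6d had 7.50, 6.71, 5.05 and 5.48 CPM in furan animals 41, 42, 43 and 44, against 1.07, 1.59, 0 and 0 CPM in control animals 02, 03, 04 and 06. Its fitted change was 3.23 ± 1.4 with an adjusted p of 0.398 in edgeR. The FFPE 3 wk libraries of furan animals 41, 42, 43 and 44 held counts for 14327, 13387, 12958 and 13633 genes. Those of control animals 02, 03, 04 and 06 held counts for 13304, 12383, 12249 and 11275 genes. The part of this difference in the Afp, Ly6d and marker values at 0 was not tested. Beside Ly6d, B cell markers summed to 5.20 to 8.33 CPM in furan and 1.38 to 5.90 CPM in control FFPE 3 wk pieces, with Cd79a and Ms4a1 at 0 in all 4 controls; their part in the Ly6d values was not tested.

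These wide errors go with a common dispersion of 0.336 in FFPE 3 wk pieces, against 0.0284 in FFPE 18 h and 0.015 in fresh-frozen pieces. Of the 12064 genes tested, 0.298% rose and 0.522% fell (0.821% in all); 2 of the 6 tested members and 1317 of all tested genes had an unadjusted p under 0.05 in edgeR. Non-overlapping groups with furan higher were found for 4.55% of tested genes and with furan lower for 4.25% (8.8% in all). In 1 edgeR model of all 6 groups, which shares 1 dispersion between kinds of piece, Afp (3.34, adjusted p 0.00347) and Ly6d (3.26, adjusted p 0.0162) passed in FFPE 3 wk pieces. In the same model H19 (adjusted p 1), Golm1 (0.878) and Ly6d (0.798) lost their calls in fresh-frozen pieces, and Afp (0.903) lost its call in FFPE 18 h pieces.

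H19 counts in FFPE 3 wk pieces followed neither treatment nor the other pieces of the same animal. H19 had 15, 657, 4 and 27 counts in furan animals 41, 42, 43 and 44, against 3, 528, 0 and 138 counts in control animals 02, 03, 04 and 06. This corresponds to 1.59, 89.9, 1.01 and 2.28 CPM in furan animals 41, 42, 43 and 44, against 0.805, 56.0, 0 and 14.3 CPM in control animals 02, 03, 04 and 06. One animal of each treatment carried most of the counts. Animal 03 had 0.442 CPM in its FFPE 18 h piece and animal 42 had 2.27 CPM. The fitted change of H19 was 0.40 ± 1.35 (adjusted p 0.977 in edgeR).

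The other tested members did not pass in FFPE 3 wk pieces, with fitted changes of Golm1 0.21 ± 0.89, Sox9 0.78 ± 0.94 and Cd24a 1.5 ± 1.49, with adjusted p of 0.984, 0.884 and 0.833 in edgeR. Igf2, Gpc3, Dlk1 and Epcam were too low to test. Gpc3 had 70 counts over the furan libraries and 12 over the control libraries, and Epcam 66 and 109, of which control animal 06 alone held 100.

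**Figure D4:**
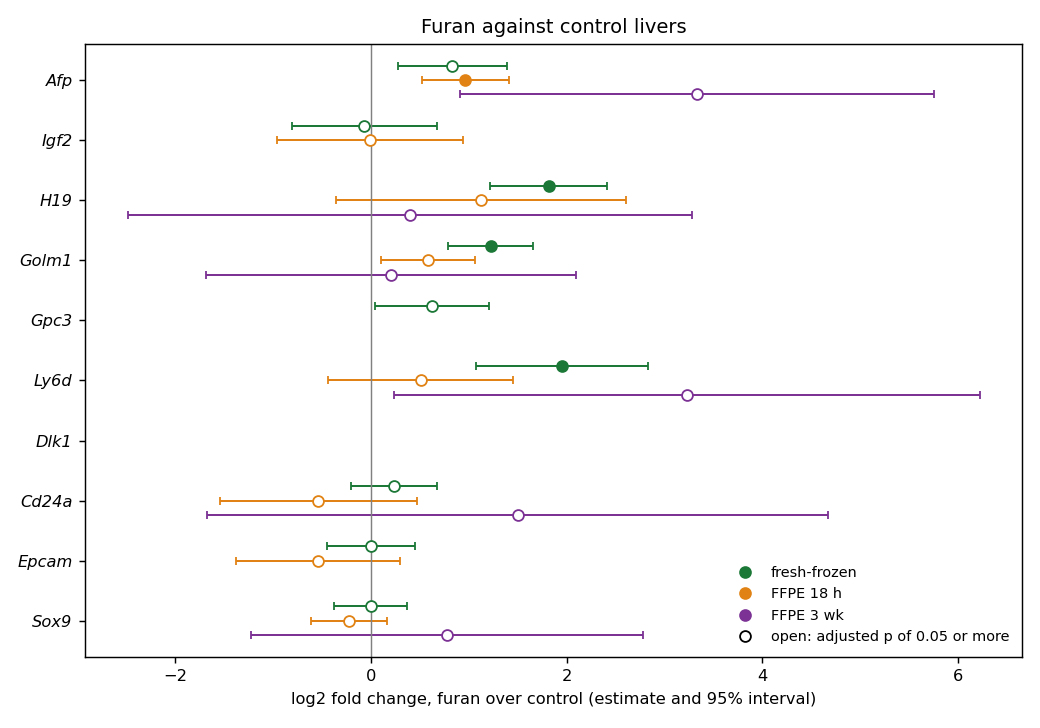
Fitted log2 fold change of each oncofetal gene, furan over control, in fresh-frozen, FFPE 18 h and FFPE 3 wk pieces, with 95% intervals; filled points have an adjusted p under 0.05 in edgeR, and a missing point was not tested. Filled points are H19, Golm1 and Ly6d in fresh-frozen pieces and Afp in FFPE 18 h pieces, and the intervals are widest in FFPE 3 wk pieces.

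Whether the furan change of a member differed between kinds of piece was tested with a treatment-by-preservation interaction, and 0 members passed. Of all 13739 genes tested for FFPE 18 h against fresh-frozen pieces 0 genes (0%) passed in edgeR, with 455 at an unadjusted p under 0.05 and 1 called by DESeq2. Of 13156 tested for FFPE 3 wk 0 genes (0%) passed, with 590 at an unadjusted p under 0.05 and 19 called by DESeq2. The FFPE 3 wk fit shares dispersions between kinds of piece, with a common dispersion of 0.204, against 0.015 in fresh-frozen pieces alone. Its lack of calls therefore does not show that the responses were alike. For Golm1 the FFPE 18 h change minus the fresh-frozen change was -0.63 ± 0.31 (95% interval -1.28 to 0.0161, adjusted p 1 in edgeR). Ly6d differed by -1.42 ± 0.73 (95% interval -2.98 to 0.13, adjusted p 1 in edgeR). Afp differed by 0.14 ± 0.31 between FFPE 18 h and fresh-frozen pieces and by 2.54 ± 1.26 between FFPE 3 wk and fresh-frozen pieces (adjusted p 1 for both in edgeR). A call of a member in one kind of piece and not in another is therefore not a tested difference.

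Levels in FFPE 18 h and fresh-frozen pieces of control livers differed for most genes, members or not. Of 8 members tested, 5 were higher and 1 lower in FFPE 18 h pieces, 75% in all, near the 68% of the 13034 tested genes that differed (34.2% higher and 33.8% lower). This comparison also holds the extraction kit and the amount of tissue, about 100 mg for frozen pieces and 1 section of 10 micrometres for FFPE 18 h pieces, which cannot be told apart from fixation. RNA integrity numbers were 1.3 to 2.4 for FFPE and above 8.9 for fresh-frozen RNA per the labels.

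Ly6d had the largest difference among the members, 4.13 ± 0.69 or 17.6-fold (adjusted p 0.000444 in edgeR). The marker sums below were scaled within each kind of piece, so FFPE and fresh-frozen sums are not on a common scale. B cell markers summed to 4.17 to 11 CPM in FFPE 18 h and 1.87 to 3.28 CPM in fresh-frozen control pieces. Keratinocyte markers summed to 2.67 to 4.13 CPM in FFPE 18 h and 0.906 to 1.24 CPM in fresh-frozen control pieces. Krt5, Krt14 and Krt13 were at 0 in both. The sum of 6 pancreas acinar markers was higher in FFPE 18 h control pieces too (78.8 to 110 against 13.4 to 18.3 CPM). Of these markers, Prss2, Cpa1 and Pnlip were at 0 in all libraries of both control groups. The sums of T and NK cell (5.23 to 6.11 against 2.15 to 4.19) and neutrophil markers (0.529 to 2.75 against 0.217 to 0.304) were also higher. Hepatocyte (112000 to 130000 against 155000 to 165000) and stellate cell markers (189 to 223 against 339 to 357) were lower. The erythroid, macrophage, mesothelium and proliferation sums overlapped. The part of these cells in the Ly6d level was not tested. The growth factor gene Igf2 was 2.23 ± 0.37 higher (adjusted p 0.000385), Cd24a 1.76 ± 0.52 (0.0121), Sox9 1.54 ± 0.17 (2.71e-05) and Epcam 1.31 ± 0.40 (0.0153) in edgeR. Afp was lower, with a change of -0.59 ± 0.18 (adjusted p 0.0159 in edgeR). Golm1 (0.52 ± 0.25, adjusted p 0.0969) and Gpc3 (-0.70 ± 0.52, adjusted p 0.258) did not pass. The sum of cholangiocyte markers was not higher, at 47.1 to 68.0 CPM in FFPE 18 h and 68.7 to 74.6 CPM in fresh-frozen control pieces, although Cd24a, Epcam and Sox9 were.

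The Afp call was lost in edgeR without fresh-frozen control 02 (adjusted p 0.0542) or 04 (0.0633), the Epcam call without fresh-frozen control 02 (0.0648), and Golm1 passed without FFPE 18 h control 06 (0.65, adjusted p 0.0181). Ly6d fell under the filter on low counts and was not tested without FFPE 18 h control 02, 03 or 04. H19 was not tested with all libraries, but it was called higher in FFPE 18 h pieces in edgeR with no filter (2.35 ± 0.70, adjusted p 0.013) and without any 1 of the 4 FFPE 18 h controls (1.38 to 2.76, adjusted p 0.00668 to 0.0228). Between FFPE 3 wk and fresh-frozen control pieces 0 of 5 tested members passed, where 26.2% of 12145 tested genes did. Afp differed there by -2.12 ± 1.48 (adjusted p 0.352 in edgeR).

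**Figure D5:**
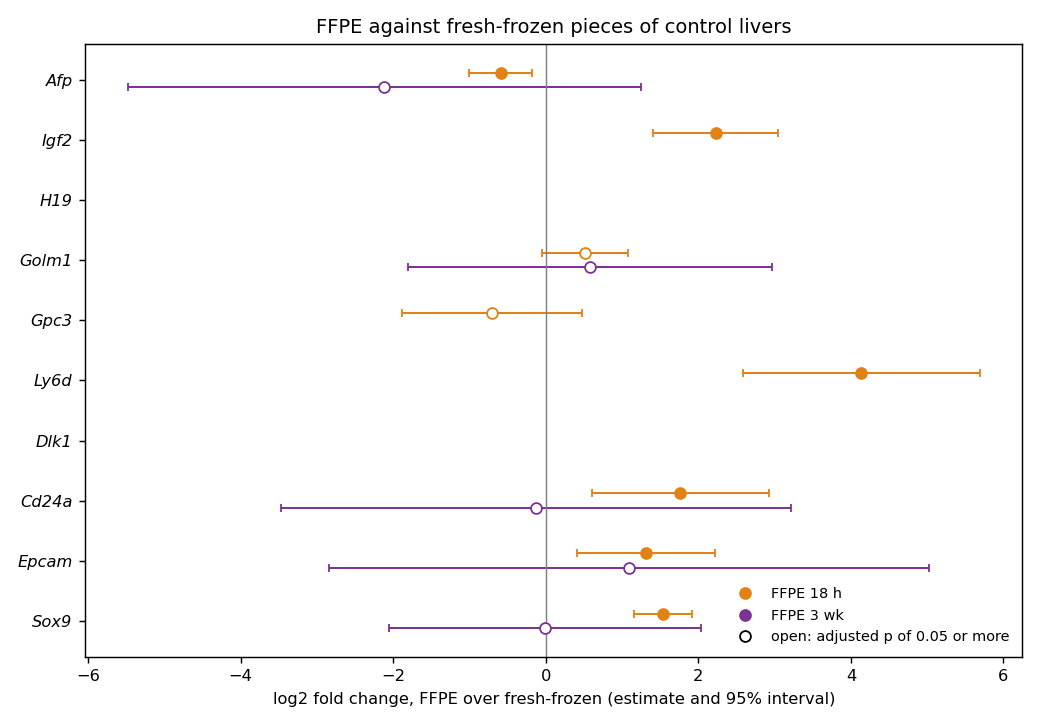
Fitted log2 fold change of each oncofetal gene in control livers, FFPE 18 h or FFPE 3 wk over fresh-frozen pieces, with 95% intervals and filled points for an adjusted p under 0.05 in edgeR. Ly6d at 4.13 lies farthest right and Afp at -0.59 is the filled point left of 0; H19 and Dlk1 were not tested.

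Among genes known to control the members, 3 of 14 tested rose in fresh-frozen liver and 1 fell, with a median of 0.13. Beside this and each later list, 8.21% of all tested genes rose and 7.47% fell in fresh-frozen liver, with a median of -0.01. In FFPE 18 h pieces 3.92% of all tested genes rose and 4.47% fell, and in FFPE 3 wk pieces 0.298% rose and 0.522% fell. The lists were chosen with earlier results of these data known, so these shares do not test any list as a set. Zbtb20, a repressor of Afp after birth, averaged 7.37 ± 0.83 CPM in furan livers and 5.11 ± 0.85 CPM in control livers (SD, n = 3 each). Its change in fresh-frozen liver was 0.53 ± 0.15 (adjusted p 0.0462 in edgeR). Zbtb20 did not pass in FFPE 18 h pieces (-0.27 ± 0.24, adjusted p 0.543) or FFPE 3 wk pieces (0.74 ± 0.535, adjusted p 0.711) in edgeR. Part of the Ctcf counts is uncertain, since 484 nt of its exons overlap opposite-strand genes. Ctcf, whose protein binds the imprinting control region between Igf2 and H19, changed by 0.38 ± 0.06 (adjusted p 0.00756) and Trp53 by 0.34 ± 0.08 (0.0312) in edgeR. Nfia, a member of the nuclear factor I family, fell by 0.47 (adjusted p 0.0063 in edgeR). Zhx2, which represses Afp, H19 and Gpc3 in adult mouse liver, changed by 0.16 ± 0.10 and did not pass (adjusted p 0.291 in edgeR). Of 14 regulators tested in FFPE 18 h pieces, 2 passed: Nfia fell by 0.43 (adjusted p 0.00956) and Hnf4a, a hepatocyte transcription factor, rose by 0.34 ± 0.07 (adjusted p 0.0124) in edgeR. In FFPE 3 wk pieces 0 of 14 passed.

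Of 18 tested imprinted growth genes outside the members, 1 rose in fresh-frozen liver and 0 fell, with a median of -0.06. This was Peg10, a retrotransposon-derived gene that is also raised in liver tumours, which averaged 0.959 ± 0.37 CPM in furan livers and 0.270 ± 0.099 CPM in control livers (SD, n = 3 each; 1.78 ± 0.40, adjusted p 0.0225 in edgeR). Of 17 tested in FFPE 18 h pieces 1 fell, the amino acid transporter gene Slc38a4, by 0.25 (adjusted p 0.0459 in edgeR). In FFPE 3 wk pieces 0 of 14 passed. Of the oncofetal RNA-binding and chromatin genes, such as the Igf2bp and Lin28 genes, 5 of 13 had enough counts in fresh-frozen liver, 6 in FFPE 18 h and 5 in FFPE 3 wk pieces, and 0 passed in any.

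Other genes known from liver tumours included several that rose. In fresh-frozen liver 7 of 17 tested rose and 0 fell, with a median of 0.46, against 8.21% and 7.47% of all tested genes. This list too was chosen with earlier results of these data known. The carbonyl reductase gene Cbr3 rose by 2.40 ± 0.33 (adjusted p 0.0046), the tetraspanin gene Cd63 by 1.89 ± 0.27 (0.00524), Lcn2, which encodes an iron-siderophore carrier, by 0.88 ± 0.18 (0.0171) and the fatty acid desaturase gene Scd2 by 0.69 ± 0.15 (0.0214) in edgeR. The remaining 3, Ect2, Prom1 and Top2a, include a pair of genes that work in cell division. Top2a is also among the proliferation markers, and Prom1 among the cholangiocyte and progenitor markers, so these lists are not independent. Of 17 tested in FFPE 18 h pieces 3 rose, Cd63 by 1.6 ± 0.20, Lcn2 by 1.36 ± 0.28 and Prom1 by 0.81 ± 0.23 (adjusted p 0.000464, 0.0101 and 0.0459 in edgeR), and in FFPE 3 wk pieces 0 of 14. Counts of Cd63 are uncertain, since 9.1% of its 50-nt words occur in other genes, among them Cd63-ps, and those of Scd2 share 4.01% with Scd1 and other genes.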

How the data were processed

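The deposited table holds raw counts of reads per gene symbol, which the authors made with an unstranded poly(A) kit; the submitters' processing notes name CASAVA 1.8.2, STAR 2.3.0, featureCounts 1.4.4 and mouse build mm9. Of its 24 columns 22 matched a labelled sample by kind of piece and animal number; 2 fresh-frozen columns matched no label and were not used here, and the labelled fresh-frozen pieces of furan animal 42 and control animal 03 matched no column, so each fresh-frozen group lacks 1 labelled animal. Counts were filtered with filterByExpr, scaled with TMM and tested in edgeR 4.0.16 (R 4.3.3), each comparison on its own groups. Each SE was taken from the fitted log2 change and its F statistic, and 95% intervals use the t distribution with the test's degrees of freedom. Alternatives were RLE scaling, other filters, DESeq2 1.42.0, limma 3.58.1 voom, robust dispersions, thinning to 3666173 counts, 1 model of all groups, the animal as a block and leaving out each library. Fits without FFPE 3 wk libraries under 5000000 counts or FFPE 18 h libraries over 15% Rn45s were added after seeing the data.

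The members and gene lists were chosen with earlier results of these data known. Named genes are the members and, per list and furan comparison, up to 4 genes with the smallest p among those with adjusted p under 0.05; genes with a pattern like a member's were to be named for members called in at least 2 furan comparisons, and 0 members were. Ect2, Prom1 and Top2a in fresh-frozen liver and Zhx2 were named after their values were seen. Replicates are animals numbered in the labels. Same-numbered pieces come from the same liver; deviations from group means correlated at 0.277 to 0.446 between fresh-frozen and FFPE 18 h pieces and at 0.0252 to 0.127 between fresh-frozen and FFPE 3 wk pieces. All pairs of libraries within groups differed by more than sampling noise (chi-square per degree of freedom of at least 9.36). Overlaps, lengths and shared 50-nt words come from GENCODE M21, a later build than that of the files, so the files' own coordinates were not used. The fits were tested on simulated data. The reads carry no molecular identifiers, so counts are not counts of independent molecules.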

Additional observations from a re-analysis of the deposited data

Results flagged for a closer look

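Among 39 pairs of an oncofetal gene and a group of 4 libraries, 7 held a library whose gap to its nearest neighbour exceeded Dixon's 95% critical value. For continuous values chance gives about 1 pair in 20, a rate that does not apply where the other libraries are at 0, as for Dlk1 in FFPE 18 h and Igf2 in FFPE 3 wk pieces. In FFPE 18 h pieces, Ly6d stood at 6.00 CPM in furan animal 43, against 3.53 CPM in the next furan animal. H19 stood at 2.89 CPM in control animal 02, with 0.706 CPM the next highest control. Dlk1 stood at 0.0491 CPM in control animal 03, which is 1 count, against 0 in the other controls.

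In FFPE 3 wk pieces, furan animal 42 stood apart for H19 at 89.9 CPM and for Igf2 at 1.78 CPM, where the next furan animals had 2.28 and 0 CPM. Dlk1 stood at 1.52 CPM in furan animal 43, which is 6 counts in a library of 3895208, against 0.106 CPM in the next furan animal. Epcam stood at 10.3 CPM in control animal 06, against 0.859 CPM in the next control. The furan changes of H19 and Ly6d in FFPE 18 h pieces and of H19 in FFPE 3 wk pieces did not pass edgeR's test. Dlk1 in FFPE 18 h pieces and Igf2, Dlk1 and Epcam in FFPE 3 wk pieces were too low to test.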

How the results depend on the processing

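Of 398 fitted changes of the members with an adjusted p under another setting, 369 kept their direction and their side of the threshold. For 8 more DESeq2 gave no adjusted p, among them all 6 tested members in FFPE 3 wk pieces, and these kept their direction; the cause of the other moves was not tested except where the construction shows it. Low counts limited the tests to 9 members in fresh-frozen liver, to 8 in FFPE 18 h pieces and to 6 in FFPE 3 wk pieces.

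In fresh-frozen liver, where 2162 genes and 3 members were called, the filter at 1 CPM left 1 called member, because H19 and Ly6d were no longer tested. Thinning gave 759 genes and 0 members among the 3 still tested. The model of all 6 groups gave 138 genes and 0 members. Near-zero changes turned sign: Sox9 was -0.000792 with RLE, -0.0023 with no filter, -0.11 thinned and -0.0178 in the model of all groups, and Epcam was -0.0015 with no filter.

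For FFPE 18 h pieces (1077 genes, 1 member), thinning gave 682 genes and Sox9 at 0.0119, the model of all groups 225 genes and 0 members, and the 6 animals with a fresh-frozen library 594 genes and 0 members. For FFPE 3 wk pieces (99 genes, 0 members), the counts were 194 genes with no filter, 353 with DESeq2, 2030 genes and 2 members in the model of all groups, 12 without the libraries under 5000000 counts, and 19 with the 6 animals, where H19 turned to -1.62 and Golm1 to -0.30.

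Against 0 genes for the differences of furan responses from fresh-frozen pieces, DESeq2 called 1 for FFPE 18 h and 19 for FFPE 3 wk, and leaving out the FFPE 3 wk libraries under 5000000 counts gave 2. For FFPE 18 h, thinning turned Ly6d to 0.0783 and Sox9 to 0.25, and voom turned Igf2 to -0.084. For FFPE 3 wk, voom turned Golm1 to 0.18 and Epcam to 1.61. Between control pieces, thinning left 2 members called for FFPE 18 h against 6, Ly6d and Sox9, with 4 tested. For FFPE 3 wk, where 0 members were called, the 1 CPM filter called 1, H19, and Sox9 turned to 0.0183 with RLE and 0.0166 with DESeq2.

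No animal block was possible for furan against control, since no animal had both treatments. With the animal as a replicate block, 2 genes differed in furan response between FFPE 18 h and fresh-frozen pieces in place of 0, and Igf2 turned to -0.14 there. The block turned Epcam to 0.72 for the difference between FFPE 3 wk and fresh-frozen responses and to -0.38 for FFPE 3 wk against fresh-frozen controls. It changed no call of a member.

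Leaving out 1 library at a time gave 864 to 1620 called genes in fresh-frozen liver, and the 2162 with all libraries fell by over 1.5 times without furan animal 41 (1359), 43 (864) or 44 (1140) or control animal 02 (1311) or 04 (1287). It gave 633 to 1285 for FFPE 18 h, with 664 without furan animal 43 and 633 without furan animal 44. It gave 17 to 173 for FFPE 3 wk, where each of the 8 libraries moved the count past 1.5 times and control animal 06 alone raised it. In fresh-frozen liver Igf2 ranged from -0.23 to 0.11, Epcam from -0.13 to 0.0999 and Sox9 from -0.13 to 0.14. In FFPE 18 h pieces Igf2 ranged from -0.17 to 0.28 and Cd24a from -0.86 to 0.0457, and in FFPE 3 wk pieces H19 from -3.41 to 2.19 and Golm1 from -0.20 to 0.53. The difference between FFPE 18 h and fresh-frozen responses ranged from -0.11 to 0.34 for Afp, -1.30 to 0.42 for H19 and -0.11 to 0.36 for Igf2. That between FFPE 3 wk and fresh-frozen responses had 0 to 5 called genes (5 without FFPE 3 wk control 02), and ranged from -5.28 to 0.39 for H19, -0.82 to 0.0464 for Igf2 and -1.10 to 2.42 for Epcam. For FFPE 3 wk against fresh-frozen controls there were 1978 to 4396 called genes against 3188, with 1978, 2004 and 1988 without fresh-frozen control 02, 04 and 06, and 0 to 1 called members, H19 being called without FFPE 3 wk control 04. Cd24a ranged there from -1.20 to 0.27, Epcam from -2.05 to 1.49 and Sox9 from -0.32 to 0.35.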

Other observations

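Among genes of the insulin-like growth factor axis, which carries the signal of the Igf2 protein, 2 of 14 rose and 3 fell in fresh-frozen liver, with a median of -0.16 on the log2 scale. The growth hormone receptor gene Ghr averaged 479 ± 30.1 CPM in furan livers and 707 ± 54.1 CPM in control livers (SD, n = 3 each) and fell by 0.56 (adjusted p 0.00792 in edgeR). Igfbp2 fell by 0.55 (adjusted p 0.0145), and the receptor substrate gene Irs1 rose by 0.66 ± 0.16 (0.0282) in edgeR, although 30.5% of the Irs1 words lie in the opposite-strand gene Gm9747, which makes its counts uncertain. Igfbp1, a stress-responsive binding protein gene, rose by 1.63 ± 0.45 (adjusted p 0.0445 in edgeR), at 67.7 ± 42.3 CPM in furan livers and 21.9 ± 5.27 CPM in control livers. In FFPE 18 h pieces 1 rose and 3 fell: Igfbp1 changed by 1.42 ± 0.37, Ghr by -0.32 ± 0.06, Insr by -0.34 ± 0.09 and Igfbp2 by -0.33 ± 0.09 (adjusted p 0.0306, 0.00757, 0.0421 and 0.0451 in edgeR). In FFPE 3 wk pieces 0 of 14 passed.

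Among cholangiocyte and progenitor markers other than the members, 3 of 15 rose in fresh-frozen liver and 0 fell, with a median of 0.46. These were the keratin genes Krt8 (0.46 ± 0.09, adjusted p 0.0168) and Krt18 (0.50 ± 0.10, 0.0172), which hepatocytes also express, and Prom1 (0.84 ± 0.23, 0.0414), all in edgeR. Counts of Krt8 are uncertain, with 29.7% of its 50-nt words shared with Krt8-ps and Gm36026, and 424 nt of Prom1 exons overlap an opposite-strand gene. Of 15 tested in FFPE 18 h pieces 3 rose, Krt8 by 0.43 ± 0.09, Krt18 by 0.43 ± 0.09 and Prom1 by 0.81 ± 0.23 (adjusted p 0.012, 0.0142 and 0.0459 in edgeR). In FFPE 3 wk pieces 0 of 12 passed. Genes linked to SOX9 through Notch and YAP gave 3 rises among 12 tested in fresh-frozen liver, while 2 rose in FFPE 18 h pieces and 1 rose in FFPE 3 wk pieces. Tnfrsf12a, the TWEAK receptor, rose by 1.81 ± 0.14 in fresh-frozen liver, by 1.79 ± 0.15 in 18 h FFPE pieces and by 2.3 ± 0.41 after 3 wk of fixation (adjusted p 0.000451, 2.59e-05 and 0.0192 in edgeR). Notch1 rose by 0.65 ± 0.15 in fresh-frozen and 0.49 ± 0.11 in FFPE 18 h pieces (adjusted p 0.0246 and 0.0142), and the ligand gene Jag1 by 0.32 ± 0.09 in fresh-frozen pieces (adjusted p 0.0455) in edgeR, while Sox9 itself did not pass in any kind of piece. Counts of Notch1 are uncertain, with 1482 nt of its exons overlapped by opposite-strand genes.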
